A study of Mus musculus with 2 samples.

Results

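Immediate early and activity-induced genes were compared between Cx30 KO and WT mice in the striatum after MPTP, a toxin that damages dopamine neurons. A fixed list of 36 genes was taken, and a gene was a member when a non-control probe of the array carried its symbol as the probe's gene name. The 36 genes had 54 probes, of which 46 were well above background on 1 or both arrays, and all 36 genes were measured on both arrays, among 22043 genes measured of 37074 named. Each array held cRNA from a pool of 2 male mice, 8 weeks old, killed on day 1 after 4 injections of 20 mg/kg MPTP given 2 h apart. The WT pool is labelled C57BL/6J, and WT mice are described in the methods as non-mutant offspring of heterozygous parents. The Cx30 KO pool is labelled Cx30-LacZ, a line in which the gene for the astrocyte gap junction protein connexin 30, Gjb6, is disrupted in every cell. Both groups had received MPTP, and saline-treated mice were not analysed here. With 1 array per genotype there were no replicates, so no test between genotypes could be made and every difference is one between these 2 pools. In bulk tissue, fewer cells of a type and less RNA per cell cannot be told apart.

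Immediate early genes are transcribed within minutes of a stimulus without new protein synthesis. In neurons, synaptic input and calcium entry activate kinases of the ERK and CaMK pathways, which act on transcription factors already bound at these genes, among them CREB and SRF. Their products are mostly transcription factors, such as the Fos, Jun, Egr and Nr4a proteins, and these act on further genes. Dusp genes encode phosphatases that switch MAP kinases off again. In the striatum these genes are known for their response to dopamine and to glutamate from the cortex.

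Arrays held 62976 spots of 56605 probes, and 56.6% of probes in the WT pool and 58.2% in the Cx30 KO pool were well above background. No probe was saturated. The targeted gene, Gjb6, had a processed signal of 1788 in the WT pool and 111 in the Cx30 KO pool, a log2 ratio of -3.94. All 11 markers of striatal neurons were well above background on both arrays, and none met the criteria for a difference between genotypes. Their median log2 ratio was -0.05. Their summed signal, not scaled between arrays and mostly that of the brightest probes, was 513135 in the WT pool and 508158 in the Cx30 KO pool. Signals are given as the scanner software reported them, in arbitrary units, with the error it gave for a spot after the ± sign. Ratios, Cx30 KO over WT, were taken after each array had been scaled to its 75th percentile. Levels of different probes cannot be compared with each other.

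Of the 36 genes, 8 were lower in the Cx30 KO pool and none was higher. A gene was called higher when its Z-score reached 2 and its ratio 1.5, and lower when its Z-score was -2 or less and its ratio 0.66 or less. These numeric limits are the study's. The Z-score set a probe's log2 ratio against those of the 1000 detected probes nearest to it in mean signal. That window was chosen here, and the study's description of its Z-score names none. The 8 lower genes, Nr4a1, Egr1, Egr2, Egr4, Fosl1, Fosl2, Npas4 and Arc, made up 22.2% of the members, against 2.84% of all measured genes that met the criteria for lower and 1.93% that met those for higher. By the ratio limit alone the members' counts were again 8 lower and 0 higher, against 6.22% of all genes lower and 7.24% higher. The median log2 ratio of the 36 genes was -0.15, with quartiles at -0.57 and 0.14, and 22 genes lay below 0 and 14 above. Over all measured genes the median was 0.03, with quartiles at -0.17 and 0.21. No set test was made of these counts, which are descriptions of 2 pools.

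**Figure D1:**
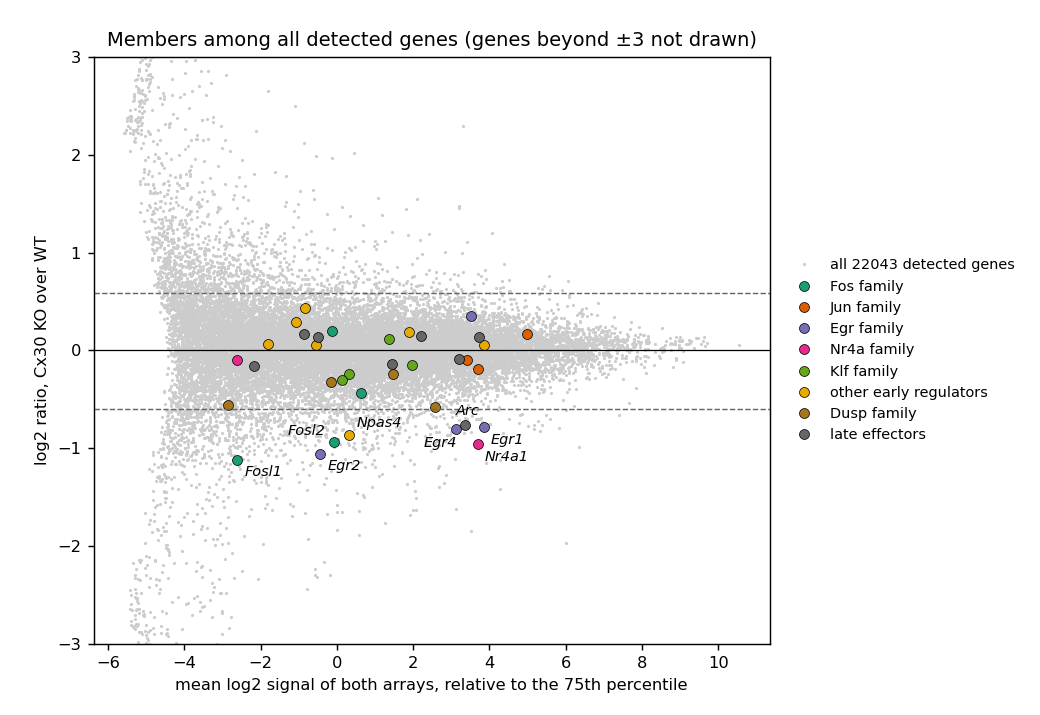
Log2 ratio of Cx30 KO over WT (vertical axis) against the mean log2 signal of both arrays relative to the 75th percentile (horizontal axis) for all 22043 measured genes (grey) and the 36 members (coloured by family). Dashed lines mark the ratio limits of 1.5 and 0.66; the 8 named genes, spread over low, middle and high signals, lay below the lower line, and no member lay above the upper one.

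The count of 8 depended on how the Z-score and the ratio limit were set. With a Z-score taken over all detected probes, no member met the criteria, while 2.03% of all genes were lower. With ratio limits of 2 and 0.5, Egr2 and Fosl1 alone remained lower among the members, while 1.40% of all genes were lower.

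Upstream sequences were read for the members to show what the lower genes hold next to their starts. RefSeq promoters of mouse build GRCm38.p6 were matched by symbol for 27 of the 36 genes, Cyr61 through its current symbol Ccn1, and 5 of the 8 lower genes were among them. Fosl1, Egr1, Egr3, Klf10, Ier2, Dusp4, Arc, Nptx2 and Sik1 had no entry. The 250 bases before each annotated start are considered here. The 4 lower genes with a single annotated start are shown first, as the sequences next to which expression was lower. Fos and Dusp5 follow, which did not meet the criteria. Their windows share a motif with some of these lower genes and carry others too. The windows are chr5:32136222-32136471 on the plus strand for Fosl2, chr6:85513590-85513839 on the minus strand for Egr4, chr15:101266596-101266845 on the plus strand for Nr4a1, chr19:4989972-4990221 on the minus strand for Npas4, chr12:85473640-85473889 on the plus strand for Fos and chr19:53528895-53529144 on the plus strand for Dusp5. Each reads 5′ to 3′ towards the start, and capitals mark matches, on either strand, to the motifs described after them.
Fosl2: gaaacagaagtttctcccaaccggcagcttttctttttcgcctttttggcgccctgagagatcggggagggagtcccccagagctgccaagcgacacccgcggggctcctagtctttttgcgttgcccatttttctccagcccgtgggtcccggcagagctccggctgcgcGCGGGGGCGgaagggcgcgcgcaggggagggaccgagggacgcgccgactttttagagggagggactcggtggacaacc
Egr4: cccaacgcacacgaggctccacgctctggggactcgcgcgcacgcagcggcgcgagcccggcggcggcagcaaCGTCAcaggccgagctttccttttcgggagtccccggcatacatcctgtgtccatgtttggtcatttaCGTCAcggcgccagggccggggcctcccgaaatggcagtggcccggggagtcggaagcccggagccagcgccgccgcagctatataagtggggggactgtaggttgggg
Nr4a1: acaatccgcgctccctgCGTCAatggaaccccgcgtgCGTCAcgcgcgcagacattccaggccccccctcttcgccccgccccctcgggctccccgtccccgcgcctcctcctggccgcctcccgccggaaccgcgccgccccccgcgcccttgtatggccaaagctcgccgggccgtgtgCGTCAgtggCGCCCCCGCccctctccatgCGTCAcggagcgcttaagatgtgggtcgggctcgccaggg
Npas4: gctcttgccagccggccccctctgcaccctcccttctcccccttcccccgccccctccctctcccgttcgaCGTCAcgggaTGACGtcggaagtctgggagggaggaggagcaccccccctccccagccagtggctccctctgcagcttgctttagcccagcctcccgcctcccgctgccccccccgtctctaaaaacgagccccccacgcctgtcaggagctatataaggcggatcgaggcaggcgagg
Fos: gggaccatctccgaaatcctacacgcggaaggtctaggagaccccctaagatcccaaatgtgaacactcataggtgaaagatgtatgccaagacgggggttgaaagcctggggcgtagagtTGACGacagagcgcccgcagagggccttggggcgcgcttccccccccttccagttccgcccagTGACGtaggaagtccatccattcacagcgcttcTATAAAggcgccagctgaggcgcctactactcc
Dusp5: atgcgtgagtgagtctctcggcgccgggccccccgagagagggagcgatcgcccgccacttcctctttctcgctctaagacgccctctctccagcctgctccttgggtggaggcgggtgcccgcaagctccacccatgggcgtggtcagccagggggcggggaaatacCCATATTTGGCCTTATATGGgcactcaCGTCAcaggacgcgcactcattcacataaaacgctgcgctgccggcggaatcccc

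The core of the cAMP response element, TGACG, to which CREB binds, was found on either strand in 17 of the 27 members (63.0%), against 19.8% of the 27025 genes in the RefSeq table. Of the lower genes, 4 of 5 held it, namely Egr2, Egr4, Npas4 and Nr4a1, as did 13 of the 22 other members. The full palindrome TGACGTCA, which contains the core, was present in Btg2, Dusp1 and Maff, none of them among the lower genes, and so in 11.1% of members against 1.77% of all genes. CArG boxes, the element that SRF binds, were present in Dusp5 and Egr2, or 7.41% of members against 1.62% of all genes. The Egr site GCGGGGGCG was present in Fosb, Fosl2, Klf2, Klf4 and Nr4a1, or 18.5% against 2.93%. The AP-1 site TGAGTCA, which Fos and Jun dimers bind, was present in Csrnp1 alone, or 3.70%, against 5.16%. TATAAA was present in Cyr61, Fos, Gadd45b, Gadd45g and Inhba, or 18.5%, against 14.3%. Short motifs are common in any sequence, genes with several starts had more windows searched, and a match describes letters, not binding. The genes of the RefSeq table were not matched to the members in base composition, so the shares cannot be read as enrichment. Sites outside these 250 bases were not searched, so a gene without a match here may hold one elsewhere.

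**Figure D2:**
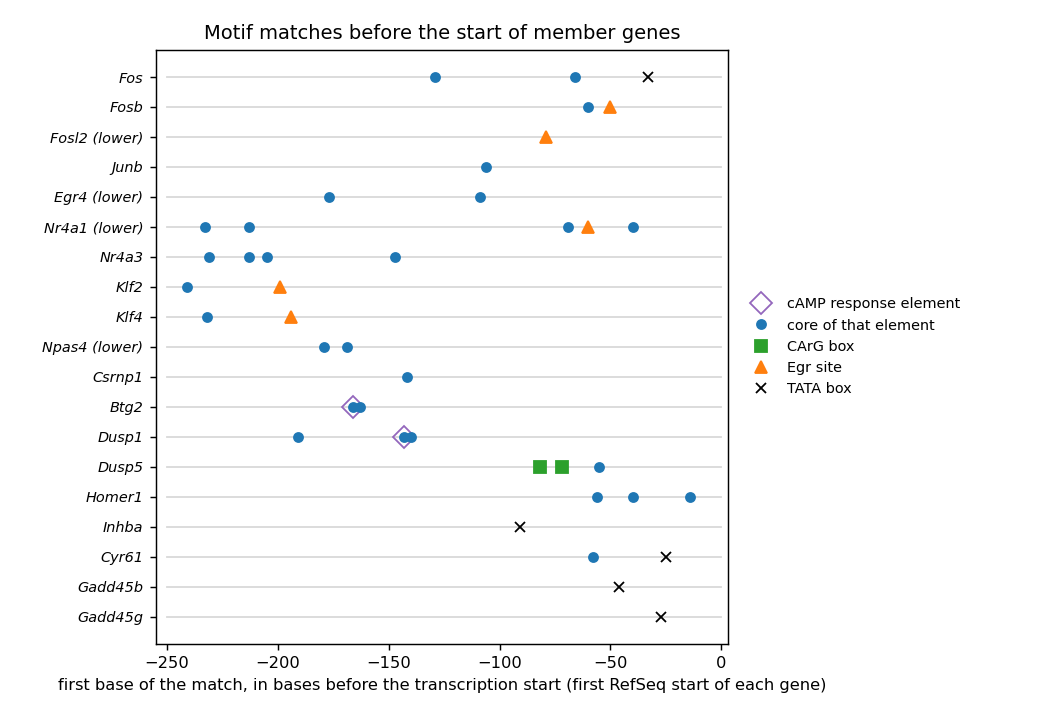
Positions of motif matches in the 250 bases before the first RefSeq start of each gene (horizontal axis, bases before the start) for the 19 members with a match there; symbols give the motif, and "lower" marks genes that met the criteria. TGACG matches lie in lower genes such as Nr4a1, Egr4 and Npas4 and also in genes that did not meet the criteria, such as Fos, Nr4a3 and Homer1.

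Among the Fos family, whose proteins pair with Jun proteins to form the AP-1 factor, the late-acting members Fosl1 and Fosl2 were lower and Fos and Fosb did not meet the criteria. Fosl2 had a signal of 531 ± 53.3 in the WT pool and 264 ± 26.7 in the Cx30 KO pool, a log2 ratio of -0.94 and a Z-score of -2.82. Its probe lies at chr5:32460076-32460135 (mm9, as the array files give it), and its upstream window is the one above without a TGACG match. Fosl1 (probe chr19:5455496-5455555, mm9) was dimmer, at 96.3 ± 10.6 and 42.1 ± 5.71, with a log2 ratio of -1.12, the lowest of all 36 genes, and a Z-score of -2.51. After normexp background correction and quantile normalisation its log2 ratio was -0.52 and it no longer met the criteria. Fos, the most widely used marker of neuronal activity, had a signal of 725 ± 72.7 in the WT pool and 512 ± 51.4 in the Cx30 KO pool. Its log2 ratio was -0.43 with a Z-score of -1.28, so it lay on the side of the lower genes without meeting either limit. Fosb had 341 ± 34.4 and 371 ± 37.3, a log2 ratio of 0.20, which is less than the error of 0.21 that the spot errors give for it.

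The 3 Jun genes, the partners of Fos proteins in AP-1, did not meet the criteria, with a median log2 ratio of -0.09. Jun had signals of 5588 ± 559 and 4653 ± 465 in the WT and Cx30 KO pools, a log2 ratio of -0.19. Junb, which often restrains Jun, had 4402 and 3924, a log2 ratio of -0.09, while a dimmer probe of it at 63.6 and 42.6 gave -0.51. Jund, expressed without a stimulus in most cells, gave 0.17 and 0.20 with its 2 probes.

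The Egr genes encode zinc finger transcription factors that answer to ERK signalling, and 3 of the 4 were lower in the Cx30 KO pool. Egr1, also called Zif268, had a signal of 7596 ± 760 in the WT pool and 4185 ± 419 in the Cx30 KO pool. Its ratio was 0.579, with a log2 ratio of -0.79 and a Z-score of -3.38. Egr2 (probe chr10:67004758-67004817, mm9) had 430 ± 43.3 and 196 ± 20.1, the lowest ratio of the family at 0.479, with a log2 ratio of -1.06 and a Z-score of -3.02. Egr4 (probe chr6:85461153-85461212, mm9) had 4598 ± 460 and 2509 ± 251, a log2 ratio of -0.80 and a Z-score of -2.90. Its upstream window above holds 2 TGACG matches. In these 3 genes the signals of the pools were further apart than the spot errors, which follow the software's 10% error model. The same held for Fos, Klf2, Klf4, Dusp1, Dusp4, Dusp5 and Dusp6, and for Btg2 with the higher signal in the Cx30 KO pool. None of these met the criteria, and the signals are not scaled between arrays. Egr3, a zinc finger factor of the same family, lay on the other side of 0, at 4040 ± 404 and 4918 ± 492, a log2 ratio of 0.36 that did not meet the criteria. Its other probes gave 0.06 and 0.52. Egr3 lies 12.7 Mb from Gjb6 on the same chromosome.

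Of the Nr4a genes, orphan nuclear receptors induced by cAMP and calcium, Nr4a1 (Nur77) had the Z-score farthest from 0 of all 36 genes. Its signal was 7245 ± 725 in the WT pool and 3537 ± 354 in the Cx30 KO pool, a ratio of 0.513 and a log2 ratio of -0.96, with a Z-score of -4.00 (probe chr15:101105071-101105130, mm9). Over all measured genes, 2.83% had a log2 ratio as low as that of Nr4a1 or lower. Its upstream window above holds 4 TGACG matches and an Egr site. Nr4a3 was dim on both arrays, at 68.3 ± 8.09 and 60.6 ± 7.16, a log2 ratio of -0.10. The remaining Nr4a receptor, Nr4a2, is not among the 36 genes and was higher in the Cx30 KO pool, as given below.

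**Figure D3:**
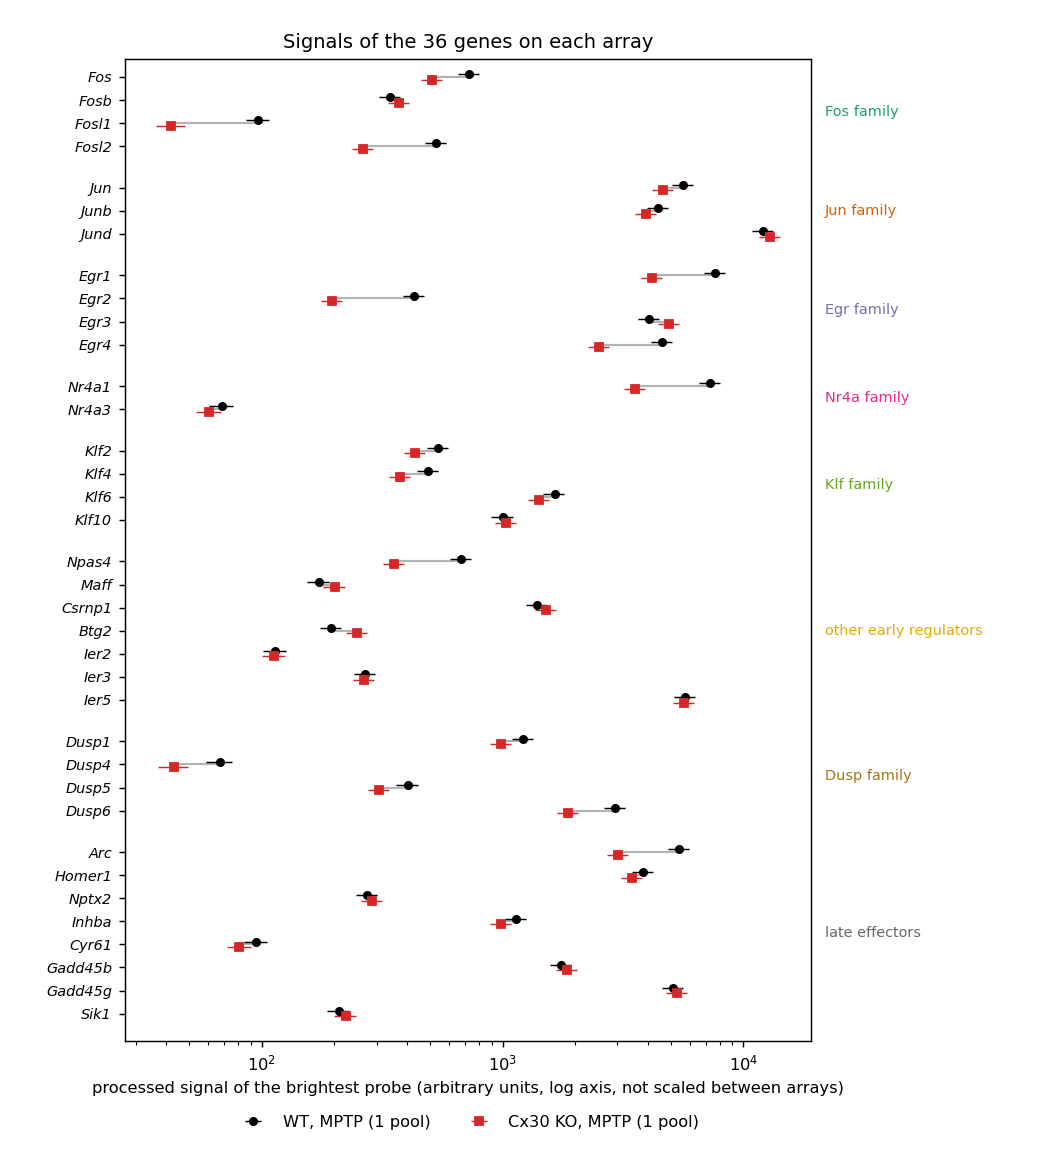
Processed signal of the brightest probe of each of the 36 genes (horizontal log axis, arbitrary units, not scaled between arrays) in the WT pool (black circles) and the Cx30 KO pool (red squares), 1 pool each; bars are the scanner software's error for a spot. The error bars of the pools are apart for the 8 lower genes and also for genes that did not meet the criteria, namely Fos, Klf2, Klf4, Dusp1, Dusp4, Dusp5, Dusp6 and Btg2. Egr3 and Btg2 are the genes with the clearest shift to the right in the Cx30 KO pool. Distances between genes carry no meaning, since probes differ.

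Klf genes encode zinc finger factors induced by growth factors and stress, and none of the 4 met the criteria. Klf2, best known from endothelium, had signals of 542 ± 54.4 and 435 ± 43.6, a log2 ratio of -0.25. Klf4 had 488 ± 49.0 and 377 ± 37.9, a log2 ratio of -0.30. Klf6 gave -0.15 and Klf10, a TGF-beta target, 0.12.

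Among 7 other early regulators only Npas4 met the criteria, and the other 6 lay above 0. Npas4 is a transcription factor that is induced by calcium entry in neurons and little by other stimuli. Its signal was 674 ± 67.6 in the WT pool and 353 ± 35.6 in the Cx30 KO pool, a ratio of 0.550, a log2 ratio of -0.86 and a Z-score of -2.85 (probe chr19:4984356-4984415, mm9). Its upstream window above holds 2 TGACG matches. Btg2, an antiproliferative gene that p53 also induces, had the highest log2 ratio of the 36 genes, 0.43, from 194 ± 19.9 to 249 ± 25.2, with 0.19 in its other probe. Maff, a small Maf factor, gave 0.29 and Csrnp1 gave 0.19. The stimulus-induced Ier2, Ier3 and Ier5 each gave 0.06, less than their spot errors.

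The Dusp genes all lay below 0, with a median log2 ratio of -0.44, and none met the criteria. Dusp6, the phosphatase specific for ERK, came closest, with signals of 2941 ± 294 in the WT pool and 1874 ± 187 in the Cx30 KO pool. Its Z-score of -2.15 passed and its ratio of 0.669 fell just outside the limit of 0.66, and with scaling by the array median it met both. Dusp4 was dim, at 67.1 ± 8.23 and 43.2 ± 6.03, a log2 ratio of -0.56, against -0.10 in its other probe and -0.02 after normexp correction. Dusp5 had 403 ± 40.7 and 307 ± 31.0, a log2 ratio of -0.32, and the window above shows its 2 CArG boxes. Dusp1, which acts on p38 and JNK as well, had 1219 ± 122 and 982 ± 98.3, a log2 ratio of -0.24.

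The group named late effectors here holds genes that act on synapses, growth factor signalling or DNA repair. Its name is a label of the list, and the time at which its genes are induced was not measured. Of its 8 genes 4 lay below 0 and 4 above, with a median log2 ratio of 0.02. Arc, whose protein drives the removal of AMPA receptors from synapses, was the 1 lower gene of the group. Its signal was 5399 ± 540 in the WT pool and 3017 ± 302 in the Cx30 KO pool. Its ratio was 0.587, its log2 ratio -0.77 and its Z-score -2.93 (probe chr15:74499597-74499656, mm9). The remaining genes with 1 probe ranged from -0.16 in Cyr61, a matrix protein, to 0.17 in Sik1, a kinase that restrains CREB coactivators. Inhba, the activin A subunit, gave -0.14. Gadd45b and Gadd45g, which take part in stress responses and DNA demethylation, gave 0.15 and 0.14. Nptx2, a pentraxin that clusters AMPA receptors, gave 0.14 and 0.17 with its 2 probes.

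Homer1, a scaffold of metabotropic glutamate receptors with long constitutive and short activity-induced transcripts, gave 4 different values with its 4 probes. Its brightest probe had signals of 3843 ± 384 in the WT pool and 3435 ± 343 in the Cx30 KO pool, a log2 ratio of -0.09. A probe 58.2 kb upstream of it gave -0.20, and one 1.55 kb upstream gave -0.47. The fourth probe, 45.0 kb upstream of the brightest at chr13:94129858-94129917 (mm9), had 296 ± 30.0 and 145 ± 15.1, a log2 ratio of -0.96 with a Z-score of -2.73, and met the criteria. With the mean of its 4 probes the log2 ratio of Homer1 was -0.43. Each probe is annotated to a different transcript record, but whether that is a long or a short form is not stated. Probes of 1 gene differed by an SD of 0.25 on the log2 scale over 7137 genes.

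**Figure D4:**
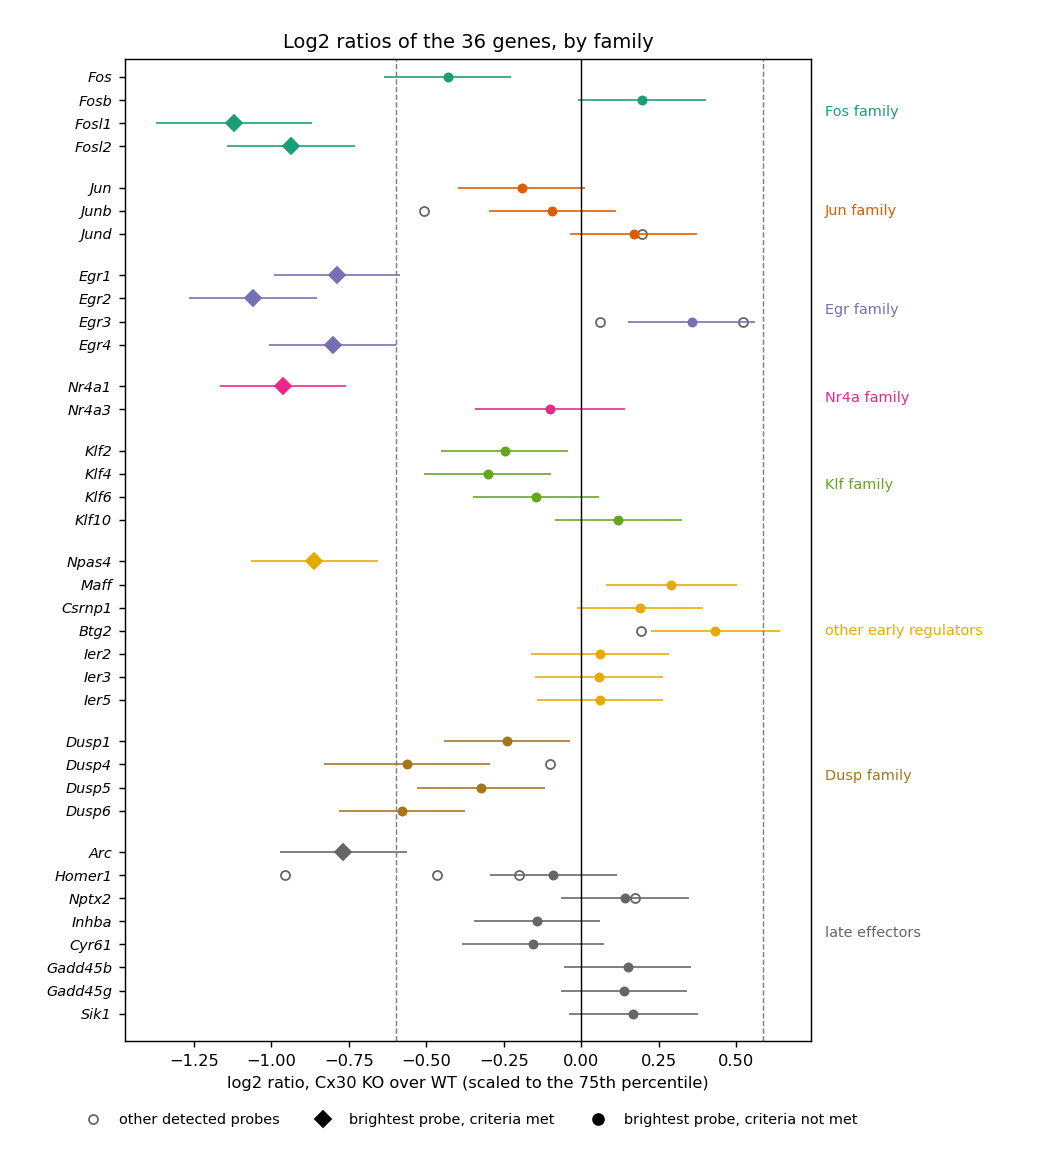
Log2 ratio of Cx30 KO over WT for the brightest probe of each of the 36 genes (diamonds, criteria met; filled circles, criteria not met), coloured by family, with the error that the spot errors give; open circles are other detected probes, and dashed lines mark the ratio limits of 1.5 and 0.66. The 8 diamonds lie between -1.12 and -0.77 in the Fos, Egr, Nr4a, other early regulator and late effector groups, and 1 of the 4 Homer1 probes lies among them.

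Medians of the families, on the log2 ratio scale, were -0.80 for the Egr genes, -0.68 for the Fos genes and -0.53 for the pair of Nr4a genes. They were -0.44 for the Dusp genes, -0.20 for the Klf genes, -0.09 for the Jun genes, 0.02 for the late effectors and 0.06 for the other early regulators. Within most families the members were spread, with Egr2 and Egr3 at -1.06 and 0.36, Fosl1 and Fosb at -1.12 and 0.20, and Nr4a1 and Nr4a3 at -0.96 and -0.10. The families hold 2 to 8 genes each and the differences between them were not tested.

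A further list of 35 activity-induced genes, of which 33 were measured, had a median log2 ratio of -0.09, with 20 genes below 0. Its 1 lower gene was Rgs4, a regulator of G protein signalling abundant in striatal neurons, with 24837 ± 2484 in the WT pool and 14570 ± 1457 in the Cx30 KO pool, a log2 ratio of -0.70 and a Z-score of -3.46. Its 3 higher genes were Nr4a2, Nrn1 and Nptx1. Nr4a2 (Nurr1), the third Nr4a receptor, had 74.2 ± 8.45 in the WT pool and 871 ± 87.2 in the Cx30 KO pool, 12.3-fold higher, opposite to Nr4a1. Its other probe, at 74.4 and 682, gave a log2 ratio of 3.27. Nrn1, or neuritin, had 71.3 ± 8.79 and 162 ± 16.9, a log2 ratio of 1.26. Nptx1, a neuronal pentraxin, had 23.9 ± 5.44 in the WT pool, not well above background, and 59.7 ± 7.42 in the Cx30 KO pool. The ratio computed from these signals was 2.62. Of 33 genes of the ERK, CREB and SRF signalling pathway none met the criteria, which few of all measured genes met, 2.84% for lower and 1.93% for higher. The median of the signalling genes was 0.03.

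Markers of several cell types differed between the pools beside these genes. Over all measured genes, 2.84% met the criteria for lower and 1.93% those for higher. All 5 markers of cortical neurons lay above 0 and 4 met the criteria for higher, with a summed signal of 169.8 in the WT pool and 1346 in the Cx30 KO pool. Emx1, Neurod6 and Slc17a7 were not well above background in the WT pool. Emx1 and Neurod6 are therefore given as lower bounds, and Emx1 was at least 1.36-fold higher in the Cx30 KO pool. The ratio computed from the signals of Slc17a7 was 12.1. Neurod2, measured on both arrays, was 12.7-fold higher. The median log2 ratio of the list was 2.50 with Emx1 and Neurod6 at their bounds and 3.22 as computed from all signals. It was 1.67 after normexp correction and quantile normalisation. All 7 oligodendrocyte markers lay below 0 and 5 were lower, from Cldn11 at -1.12 to Mobp at -0.44, with a median of -0.73 and a summed signal of 157109 in the WT pool and 93330 in the Cx30 KO pool. Of 8 microglia markers 7 lay below 0 and 4 were lower, from P2ry12 at -1.69 to Itgam at 0.13, with a median of -0.53. Their summed signals were 92384 in the WT pool and 84734 in the Cx30 KO pool with Itgam, whose probe gave most of the sum, and 32339 and 22296 over the other 7. Of 8 endothelial markers 6 lay below 0 and 1 was lower, from Flt1 at -0.93 to Pecam1 at 0.58, with a median of -0.26 and summed signals of 7630 and 6203. Astrocyte markers had a median of -0.03, from Aqp4, the 1 lower gene, at -0.95 to Slc1a2 at 0.17, with summed signals of 145290 and 132236. Striatal neuron markers ran from Pde10a at -0.40 to Ppp1r1b at 0.23, and the 8 reference genes, from Rplp0 at -0.19 to Actb at 0.14, had a median of 0.01. The part of these cell type differences in the values of the 36 genes and of Nr4a2 was not tested. Summed signals in this paragraph are not scaled between arrays, unlike the ratios, and the brightest probes weigh most in them.

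**Figure D5:**
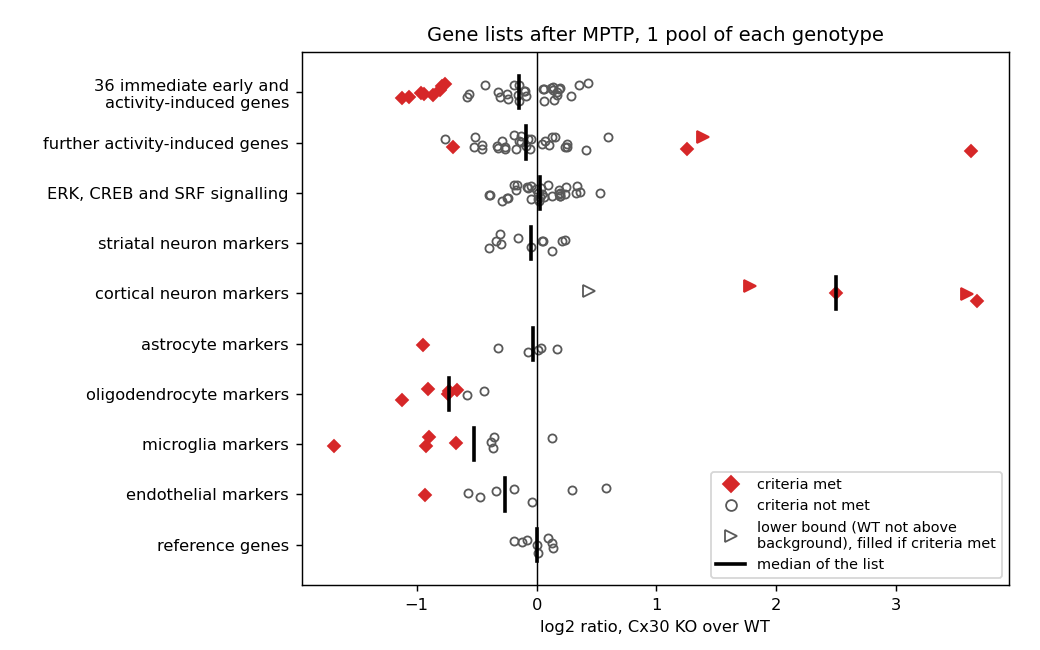
Log2 ratio of Cx30 KO over WT (horizontal axis) of each measured gene in the 36 members, the further activity-induced genes, the signalling genes and the marker lists (rows, points spread vertically for visibility). Red symbols are genes that met the criteria, and black bars are medians. Triangles are genes whose WT signal was not well above background. They mark lower bounds for Emx1 and Neurod6 and the ratio as computed for Nptx1 and Slc17a7. Lower members lie at -0.77 or less, signalling genes and striatal neuron markers lie around 0, and cortical neuron markers lie to the right.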

How the data were processed

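Striatal total RNA, pooled from 2 mice per genotype, was labelled with Cy3 and hybridised to 1 single-colour array each. The deposited files hold processed signal intensities per spot, background-subtracted by the authors' scanner software, Agilent Feature Extraction (version 10.7.1.1 per the file headers, 9.5.1.1 in the submitters' notes), with its 10% error model. Intensities were averaged over the spots of a probe without outlier flags, scaled to each array's 75th percentile (401.2 and 381.8) and turned to log2. A probe was detected when at least 50% of its spots were well above background, and a gene took its brightest detected probe. Probes spotted 8 or more times had a median SD of 2.73% and 2.84%, and the number of arrays, 1 per genotype, limits the precision. The Z-score used the 1000 nearest detected probes. Its code was run on simulated data with planted shifts larger than those of the lower members, which does not cover shifts of their size. The authors' value table of 56605 probes, whose column medians are both 41.2, matched quantile-normalised intensities within 1% for 99.991% of values and served as an alternative. Gene names are those of the array files.

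A marker of the cortical neuron list is not reported here and was left out of its values. Members and lists were chosen with earlier results of these data known. All 36 members were named, with those of the further and signalling genes that met the criteria, the extremes of marker lists and Gjb6. Egr3's distance to Gjb6, the other probe of Nr4a2, the sum of microglia markers without Itgam and the motif examples were added after values were seen. Motifs were searched in RefSeq promoters (GRCm38.p6). Python 3.11.15, pandas 2.3.3, numpy 2.4.6, R 4.3.3, limma 3.58.1 and matplotlib 3.10.9 were used. No model was fitted and no p-value computed.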

Additional observations from a re-analysis of the deposited data

How the results depend on the processing

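The values were recomputed under 11 alternatives. The count of lower members was 8, the same genes, with quantile normalisation, the authors' value table, no filter on dim probes, a Z-score over the 200 nearest probes, the ratio limit alone, averaging of all probes of a gene, and a filter that kept genes detected on both arrays. It was 7 with normexp and quantile normalisation, where Fosl1 was lost, 9 with scaling by the array median, where Dusp6 was added, 2 with ratio limits of 2 and 0.5, and 0 with a Z-score over all detected probes. The count of higher members was 0 in each. The share of all genes called lower was 6.22% by ratio alone and 1.40% with ratio limits of 2 and 0.5. The median of the 36 genes ranged from -0.19 to -0.10, that of the Egr genes from -0.84 to -0.78, of the Fos genes from -0.73 to -0.45 and of the Dusp genes from -0.49 to -0.25, while that of the late effectors changed sign, from -0.02 to 0.02. Of 396 recomputed log2 ratios 3 moved by more than the SD of 0.25 between probes, namely Fosl1, to -0.52, and Dusp4, to -0.02, with normexp and quantile normalisation, and Homer1, to -0.43, with the mean of its probes. None of the 8 lower genes changed sign, and 1 other member, Ier2, did so under 1 alternative, reaching -0.02. The median of the cortical neuron markers, as computed from all signals, was 1.67 with normexp and quantile normalisation. The median of all genes lay between -0.07 and 0.04. No paired analysis was possible because each genotype had 1 array.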
